A study of Mus musculus with 31 samples.

Results

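The genes described here are 35 mouse imprinted genes that lie outside chromosome 11, taken from a list of named genes. No cutoff on a measured value picked these genes, but they were listed with earlier results of these data known. A bulk RNA-seq table of 34865 genes held 28 of them, and a Smart-seq2 table of 55487 genes held all 35. The 7 members without a bulk row were the noncoding RNAs Meg3, Rian, Mirg, H19, Kcnq1ot1, Airn and Peg13, which were not analysed in bulk here. By textbook assignment, 20 members are expressed from the paternal allele, 13 from the maternal allele, and Gnas and Inpp5f from either allele depending on the transcript. The files hold total expression and no allelic counts, so the parental origin of the RNA was not measured.

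Genomic imprinting is the expression of a gene from only the maternal or only the paternal chromosome, set by DNA methylation that was laid down in the egg or sperm. Most imprinted genes lie in clusters governed by a shared imprinting control region, and paternally expressed members are often linked with growth promotion and maternally expressed members with growth restraint. In the brain they are known for roles in neuronal differentiation and in the hypothalamic control of feeding and hormones, and loss of the paternal genes of the Prader-Willi cluster causes a hypothalamic syndrome in humans. For some members imprinting depends on the cell type, as for Ube3a, which is maternally expressed in mature neurons only.

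The study, whose title concerns Axin2 and stem cell competition in the developing brain, compared dorsal with ventral diencephalon of wild-type mice at E10.5, and Axin2-null with wild-type cells of the medial cortex at E11.5. The bulk groups had 3 libraries each, with 17604166 to 20622702 counts in the dorsal and 17769770 to 20838002 in the ventral libraries. The Smart-seq2 groups came from Emx1-CreERT2::MADM-11::Axin2LacZ/+ matings, with 13 libraries labelled Emx1-cre(+/-)::MDMD::Axin2(-/-) and 12 labelled Emx1-cre(+/-)::MDMD::Axin2(+/+). Cre driven by Emx1, a gene of cortical progenitors, and the mosaic marker system on chromosome 11 were thus shared by both genotypes, and the wild-type cells were not cells of an unmanipulated embryo. The sample descriptions call the null libraries green and the wild-type libraries red, so colour and genotype cannot be told apart.

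The labelled tissues were checked against defining markers. The 5 hypothalamic markers, Nkx2-1, Rax, Nr5a1, Otp and Sim1, summed to 383 to 703 CPM (counts per 1000000 counts) in ventral and 26.7 to 36.5 CPM in dorsal libraries. The 5 markers of dorsal diencephalon and cortex, Tcf7l2, Gbx2, Emx1, Emx2 and Tbr1, summed to 1519 to 1869.6 CPM in dorsal libraries and 75.3 to 86.1 CPM in ventral ones. Markers of other organs stood out in the ventral libraries, where 8 small intestine markers summed to 4665, 8298 and 2321 CPM against 8.62 to 10 CPM in dorsal, and 8 exocrine pancreas markers to 1295, 2470.3 and 526 CPM against 2.36 to 3.12 CPM. Ventral library 3 stood apart, with correlations of 0.9253 and 0.9141 with the other ventral libraries, which correlated at 0.9871 with each other, and dorsal library 3 correlated at 0.9623 and 0.9593 with the other dorsal libraries, which correlated at 0.9948. In such bulk libraries, fewer cells of a type and less RNA per cell cannot be told apart. Whether the 3 libraries of a region stem from different embryos is not given by the labels, and a p-value here reflects only how these libraries vary.

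Promoter sequence was examined because imprints are carried by methylated CpG pairs. The letters TGCCGC, the core bound by the imprint-protecting zinc finger protein Zfp57 when methylated, were searched on both strands of the 250 bases before each gene start in the RefSeq promoter table on GRCm38.p6. Of the 35 members, 28 matched that table by symbol, with 42 start windows, and 7 of these windows in 6 members (Copg2, Meg3, Mest, Nap1l5, Plagl1 and Zim1) held the letters. Across all 32851 promoters of the table, 8.68% held them. The median number of CpG pairs was 10 in the members' windows and 6 in all windows. A match is a description of letters and not a binding site.

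The windows below belong to members on which the results turn, and each is given 5′ to 3′ from RefSeq, GRCm38.p6, with every CpG pair in capitals. The first is the 146 bases between the divergent genes Peg3 and Usp29 (chr7:6730432-6730577, plus strand, 5 CpG pairs), shown because both genes start at its edges.
Peg3 and Usp29: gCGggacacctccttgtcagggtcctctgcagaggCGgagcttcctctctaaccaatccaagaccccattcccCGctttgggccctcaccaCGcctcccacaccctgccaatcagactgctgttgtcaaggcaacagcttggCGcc
The second is the window before a RefSeq start shared by Snrpn and Snurf (chr7:60005200-60005449, minus strand, 3 CpG pairs), shown because Snurf lies wholly within Snrpn.
Snrpn and Snurf: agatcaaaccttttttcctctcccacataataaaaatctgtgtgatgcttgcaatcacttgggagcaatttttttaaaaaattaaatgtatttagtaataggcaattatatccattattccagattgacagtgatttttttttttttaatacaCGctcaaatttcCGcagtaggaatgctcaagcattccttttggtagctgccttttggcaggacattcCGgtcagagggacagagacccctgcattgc
The third is a start of Mest (chr6:30737800-30738049, plus strand, 14 CpG pairs), where TGCCGC lies on the minus strand from bases 9 and 184 of the window.
Mest: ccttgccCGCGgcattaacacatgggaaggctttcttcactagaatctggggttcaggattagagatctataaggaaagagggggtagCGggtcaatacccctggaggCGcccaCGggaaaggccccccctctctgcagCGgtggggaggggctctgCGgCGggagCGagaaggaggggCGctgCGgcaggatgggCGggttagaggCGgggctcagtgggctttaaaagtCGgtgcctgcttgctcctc
The last windows set the paternally expressed Dlk1 (chr12:109452573-109452822, plus strand, 8 CpG pairs) beside the maternally expressed Meg3 (chr12:109540746-109540995, plus strand, 10 CpG pairs) of the same cluster.
Dlk1: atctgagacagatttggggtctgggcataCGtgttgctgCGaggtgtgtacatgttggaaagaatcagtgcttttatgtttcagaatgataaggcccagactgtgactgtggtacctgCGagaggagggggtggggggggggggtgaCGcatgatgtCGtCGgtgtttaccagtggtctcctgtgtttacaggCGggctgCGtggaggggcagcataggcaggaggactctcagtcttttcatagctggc
Meg3: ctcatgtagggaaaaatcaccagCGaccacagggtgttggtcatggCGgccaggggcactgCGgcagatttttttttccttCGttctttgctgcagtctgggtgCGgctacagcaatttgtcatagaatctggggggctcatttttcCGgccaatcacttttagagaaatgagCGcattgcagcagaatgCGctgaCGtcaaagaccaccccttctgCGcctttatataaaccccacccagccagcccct
TGCCGC occurred in the Meg3 window, on the minus strand from base 61, and the letters were not found in the windows of Dlk1, Snrpn and Snurf, or Peg3 and Usp29.

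Dorsal and ventral diencephalon differed widely in these genes. All 28 members in the bulk table reached the minimum of 1 CPM on average and were tested among 14701 genes. Of them, 15 were higher in ventral diencephalon (edgeR quasi-likelihood test, Benjamini-Hochberg adjusted p below 0.05), where 9.54% of all genes tested were called, and 0 were higher in dorsal, where 7.14% of all genes were called. The 15 were Dlk1, Phlda2, Slc22a18, Peg3, Usp29, Zim1, Ndn, Magel2, Snrpn, Peg10, Sgce, Asb4, Mest, Nnat and Nap1l5. Of them, 14, all but Snrpn, differed by at least 2-fold. Phlda2 and Slc22a18, at mean levels of 0.0914 and 0.0321 CPM in dorsal, passed the 1 CPM minimum only through their ventral libraries. A call in dorsal was thus not possible for these genes. No member was higher in dorsal even at an unadjusted p below 0.05 by edgeR, DESeq2 or limma, and the number higher in ventral was 17 by DESeq2 and 15 by limma. The median log2 fold change, ventral over dorsal, was 1.19 over the 28 members and -0.01 over all genes tested. In 19 members every ventral library lay above every dorsal library, an arrangement found in 20.0% of all genes tested.

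Members of high abundance showed the same. Among the 23 members with a mean of at least 10 CPM, 13 were higher in ventral, beside 7.57% of all genes at that level. Together the 28 members took 0.847, 0.886 and 0.982% of the counts of dorsal libraries 1 to 3, and 1.71, 1.83 and 1.92% of those of ventral libraries 1 to 3. Nnat alone, the most abundant member, made up 0.429, 0.469 and 0.561% in dorsal and 0.888, 1.08 and 0.965% in ventral libraries.

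**Figure D1:**
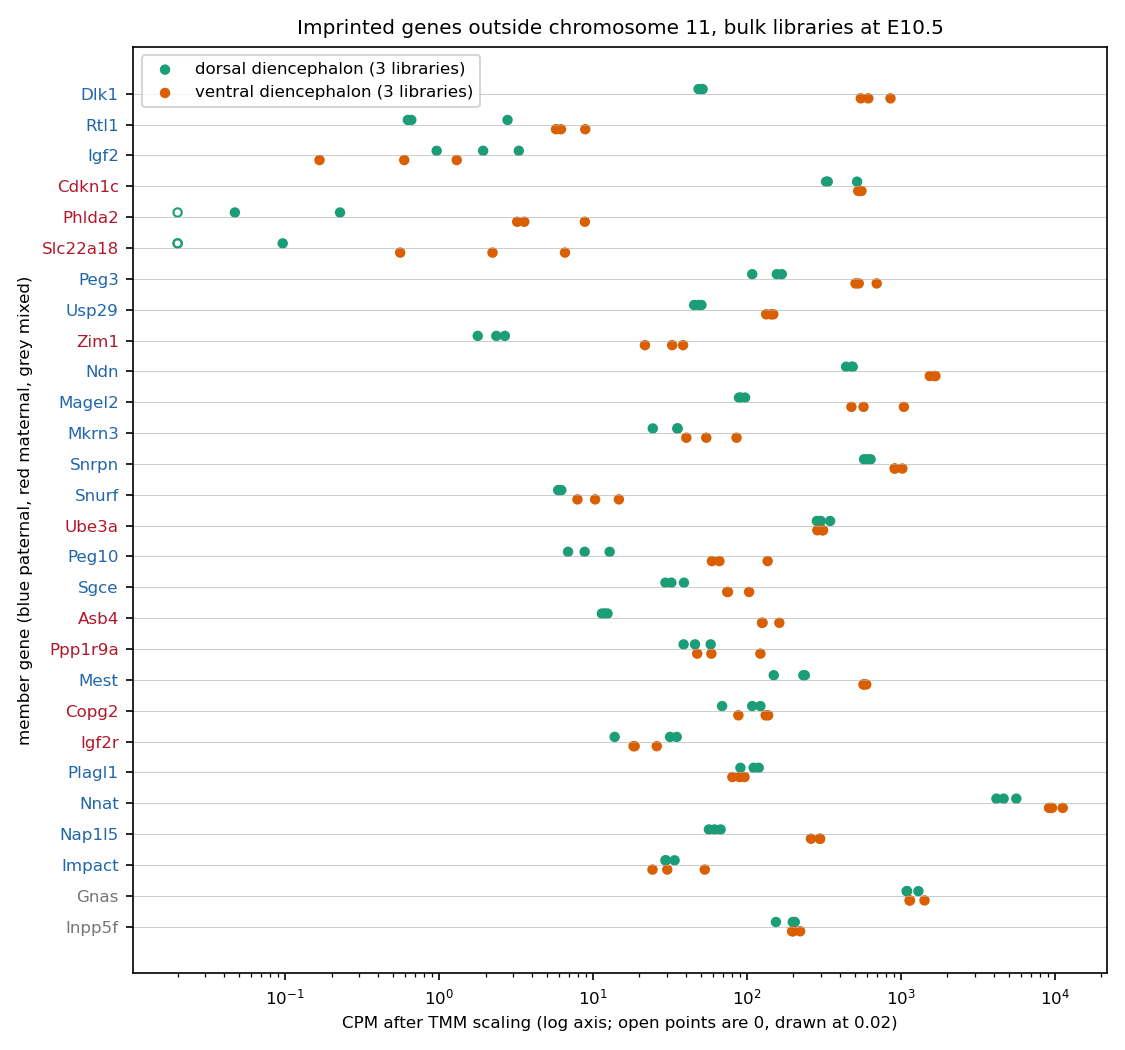
Level of each of the 28 members in each bulk library, in CPM after TMM scaling on a log axis, with dorsal libraries in green and ventral libraries in orange (3 each) and zeros as open points drawn at 0.02. In 19 members the ventral points lie wholly to the right of the dorsal points, and Igf2, Ube3a, Igf2r, Plagl1, Impact, Gnas, Inpp5f, Ppp1r9a and Copg2 overlap or interleave.

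The paternally and maternally expressed members were set side by side. Of 17 paternally expressed members tested, 11 were higher in ventral and 6 were not called, with a median log2 fold change of 1.49 and a range from -1.57 for Igf2 to 3.75 for Dlk1. Igf2, at mean levels of 2.06 CPM in dorsal and 0.687 CPM in ventral, passed the 1 CPM minimum only through its dorsal libraries. Of 9 maternally expressed members, 4 (Phlda2, Slc22a18, Zim1 and Asb4) were higher in ventral and 5 (Cdkn1c, Ube3a, Ppp1r9a, Copg2 and Igf2r) were not called, with a median of 0.68 and a range from -0.36 to 6.30. Both classes thus held genes called higher in ventral, and the difference between the classes was not tested. Of the 4 maternal calls, those of Phlda2 and Slc22a18 could only go to ventral, as these genes passed the minimum through their ventral libraries. With a minimum of 5 CPM, where neither was tested, the maternal median was 0.48. The mixed members Gnas and Inpp5f had log2 fold changes of 0.09 and 0.15 and were not called.

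Clusters differed in how many members were called. All 3 members of the Peg3 cluster were higher in ventral, as were 3 of 4 in the Peg10-Sgce cluster, 3 of 6 in the Prader-Willi/Angelman cluster, 2 of 3 in the Kcnq1ot1 cluster, 1 of 2 in the Mest cluster and 1 of 2 in the Dlk1-Meg3 cluster. The 2 called in the Kcnq1ot1 cluster, Phlda2 and Slc22a18, are those that passed the minimum only through their ventral libraries. The member measured for the Igf2-H19 cluster and that for the Igf2r-Airn cluster were not called. Of the 6 members outside these clusters, Nnat and Nap1l5 were called.

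**Figure D2:**
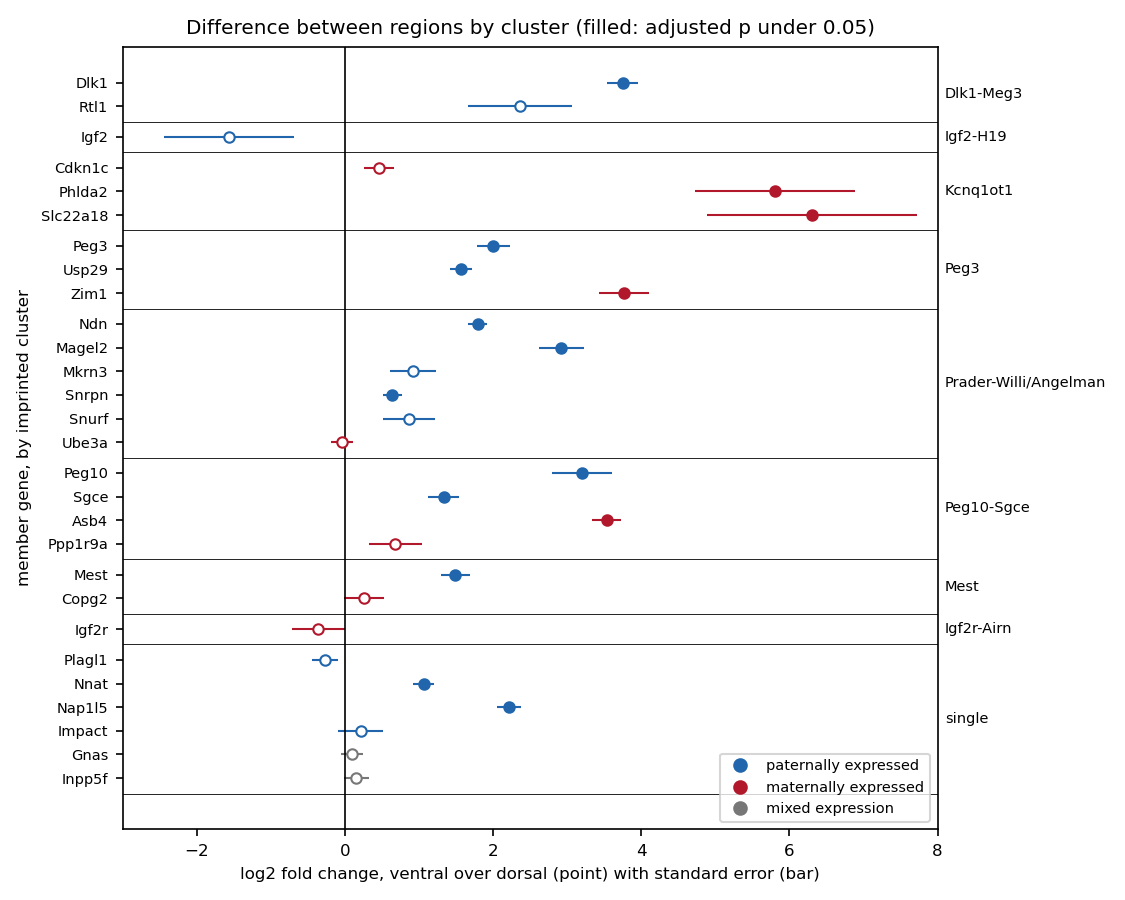
Fitted log2 fold change of each member, ventral over dorsal, with its standard error as a bar, grouped by imprinted cluster and coloured by parental class, where filled points have an adjusted p below 0.05. The 15 filled points all lie right of 0, and the Peg3 cluster is the only cluster of more than 1 measured member in which each point is filled.

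The Dlk1-Meg3 cluster on chromosome 12 encodes the membrane protein Dlk1, a noncanonical Notch ligand that restrains differentiation. Dlk1 (109452823 to 109463336, plus strand) was at 50.2, 51.4 and 48.4 CPM in dorsal libraries 1 to 3 and at 613, 548 and 854 CPM in ventral libraries 1 to 3. The dorsal libraries were nearly equal and far below every ventral library. Dlk1 was 13.4-fold higher in ventral, with a ventral mean of 672 ± 162 CPM (SD, n = 3) and a log2 fold change of 3.75 with a standard error of 0.21 (edgeR adjusted p = 6.77e-05). Its neighbour Rtl1 (109589193 to 109600330, minus strand), a retrotransposon-derived protein required in the placenta, was at 0.659, 0.626 and 2.78 CPM in dorsal libraries and 6.18, 8.89 and 5.74 CPM in ventral ones. The regions did not overlap, but dorsal library 3 lay well above the other dorsal libraries, and the call was missed (log2 fold change 2.36, standard error 0.70, edgeR adjusted p = 0.0554). Without dorsal library 3 the log2 fold change of Rtl1 was 3.41 (adjusted p = 0.00935), and without ventral library 3 the adjusted p was 0.0397. Exons of Rtl1 are overlapped by antisense microRNA genes, and whether the counting used strand is not given in the sources used here.

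In the Peg3 cluster, at the proximal end of chromosome 7, the zinc finger protein Peg3 and the deubiquitinase-family protein Usp29 start from the window printed above. Peg3 (6703892 to 6730431, minus strand) was at 156, 168 and 108 CPM in dorsal libraries and 695, 506 and 531 CPM in ventral ones. The lowest ventral library was thus well above the highest dorsal library. It was 4.01-fold higher in ventral (log2 fold change 2.0, standard error 0.22, edgeR adjusted p = 0.000873). Usp29 (6730578 to 6967219, plus strand) was at 50.5, 48.3 and 45.3 CPM in dorsal libraries and 143, 133 and 148 CPM in ventral ones. Replicates were tight in both regions and did not overlap. Its difference was 2.94-fold (log2 fold change 1.56, standard error 0.15, adjusted p = 0.000534). The maternally expressed zinc finger gene Zim1 (6671269 to 6696450, minus strand) was much scarcer at 2.35, 1.78 and 2.67 CPM in dorsal and 32.6, 21.7 and 38.4 CPM in ventral libraries. Zim1 had the largest fold of the cluster, 13.6-fold (log2 fold change 3.77, standard error 0.34, edgeR adjusted p = 0.000342). Thus the maternally expressed gene and both paternally expressed genes of the cluster were higher in the same region.

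The Prader-Willi/Angelman cluster holds Ndn and Magel2, related proteins of the MAGE family that act in neuronal differentiation and in protein sorting. Ndn (chromosome 7, 62346569 to 62350262, plus strand) was at 439.7, 485 and 480.1 CPM in dorsal libraries and 1671, 1537 and 1652 CPM in ventral ones. The spread within each region was small beside the gap between them. It was 3.46-fold higher in ventral (log2 fold change 1.79, standard error 0.13, edgeR adjusted p = 0.000117). Magel2 (62377010 to 62381640, plus strand) was at 97.0, 90.8 and 88.6 CPM in dorsal libraries and 570.3, 476 and 1043 CPM in ventral ones. Ventral library 3 was the highest by a wide margin, and the regions did not overlap. Magel2 was 7.56-fold higher in ventral (log2 fold change 2.92, standard error 0.30, adjusted p = 0.000648). The third neighbour, the ubiquitin ligase Mkrn3, whose human counterpart restrains puberty, was at 35.3, 35.3 and 24.4 CPM against 40.3, 54.3 and 85.4 CPM. Its regions did not overlap, yet the difference missed the threshold (log2 fold change 0.92, standard error 0.31, edgeR adjusted p = 0.0806).

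Snrpn (chromosome 7, 59982495 to 60140219, minus strand), which encodes a neuronal form of a core splicing protein, was at 575, 634 and 609 CPM in dorsal libraries and 1019, 908 and 913 CPM in ventral ones. All ventral values were above all dorsal values, but the step was smaller than for Ndn or Magel2, at 1.56-fold (log2 fold change 0.64, standard error 0.13, edgeR adjusted p = 0.0121). The call was lost when dorsal library 1 (adjusted p = 0.0701) or ventral library 1 (0.0715) was left out. Snurf, a small protein encoded upstream on the same transcript, was at 5.93, 6.21 and 6.02 CPM against 10.3, 7.91 and 14.7 CPM (log2 fold change 0.86, adjusted p = 0.145). Its 216 exonic bases lie wholly within exons of Snrpn and of the predicted gene Gm38393, so its count is uncertain. Ube3a (59228750 to 59311536, plus strand), the ubiquitin ligase lost in Angelman syndrome, was at 346, 301 and 284 CPM in dorsal libraries and 310.1, 286 and 311 CPM in ventral ones. The ventral values lay within the dorsal range, and it was not called (log2 fold change -0.04, standard error 0.15, adjusted p = 0.889). Exons of Ube3a share 1803 bases with the antisense transcript Snhg14, so reads of the pair may not be separated. In this cluster the 3 called genes were all paternally expressed.

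On proximal chromosome 6, Peg10 and Sgce are paternally expressed genes that start next to each other in opposite directions. Peg10 (4747306 to 4760517, plus strand), a capsid-forming protein derived from a retrotransposon, was at 12.8, 8.81 and 6.87 CPM in dorsal libraries and 66.1, 59.1 and 136 CPM in ventral ones. Ventral library 3 was again the highest, and no values overlapped. Peg10 was 9.18-fold higher in ventral (log2 fold change 3.20, standard error 0.40, edgeR adjusted p = 0.00157). Sgce (4674350 to 4747207, minus strand), the epsilon-sarcoglycan mutated in myoclonus dystonia, was at 32.2, 29.5 and 38.9 CPM in dorsal libraries and 75.1, 74.3 and 103 CPM in ventral ones. The difference of Sgce was smaller than that of its neighbour, at 2.51-fold (log2 fold change 1.33, standard error 0.21, adjusted p = 0.0044). Further along the cluster, the maternally expressed Asb4 (5383386 to 5433022, plus strand), a ubiquitin ligase adaptor known from the hypothalamus, was at 11.4, 11.9 and 12.4 CPM in dorsal libraries and 125, 126 and 162 CPM in ventral ones. The dorsal libraries were nearly equal and far below the ventral ones, and Asb4 was higher in ventral (log2 fold change 3.53, standard error 0.19, edgeR adjusted p = 6.08e-05). Between them lies Ppp1r9a, the actin-binding neurabin, at 45.9, 38.7 and 58.0 CPM against 58.6, 47.4 and 122 CPM. The regions overlapped for Ppp1r9a and it was not called (log2 fold change 0.68, adjusted p = 0.248).

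Mest (chromosome 6, 30723547 to 30748465, plus strand), a hydrolase-like protein of growing mesoderm and brain, was at 232, 237 and 149 CPM in dorsal libraries and 574, 570.4 and 594 CPM in ventral ones. Its ventral libraries were nearly equal, and dorsal library 3 was the lowest of all. Mest was 2.81-fold higher in ventral (log2 fold change 1.49, standard error 0.20, edgeR adjusted p = 0.00218). The overlapping gene on the other strand, Copg2, a coat protein of vesicle transport, was at 108, 122 and 68.8 CPM against 137, 132 and 87.8 CPM and was not called (log2 fold change 0.26, adjusted p = 0.561). The genes share 912 exonic bases, so part of the Copg2 count could be Mest RNA if strand was not used.

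On distal chromosome 7, the Kcnq1ot1 cluster encodes the cyclin-dependent kinase inhibitor Cdkn1c. Cdkn1c (143458339 to 143461050, minus strand) was at 326, 334 and 518 CPM in dorsal libraries and 553, 527 and 545 CPM in ventral ones. Dorsal library 3 came close to the ventral level, and the difference was not called (log2 fold change 0.46, standard error 0.20, edgeR adjusted p = 0.166). Without dorsal library 3 it was called at a log2 fold change of 0.71 (adjusted p = 0.00484). Phlda2 (143501545 to 143503150, minus strand), a growth-restraining protein of the placenta, was at 0.0471, 0 and 0.227 CPM in dorsal libraries and 3.21, 8.83 and 3.57 CPM in ventral ones. Phlda2 was 57-fold higher in ventral from low counts (log2 fold change 5.80, standard error 1.08, adjusted p = 0.00899), and the call was lost without dorsal library 1 (adjusted p = 0.0504). The log2 fold change of Phlda2 was 7.43 without dorsal library 3 and 5.18 without ventral library 2. The organic cation transporter family gene Slc22a18 (143473736 to 143499334, plus strand) had 2 counts in all dorsal libraries and 176 in all ventral libraries, a ratio of 92.7 after scaling by effective library sizes (exact 95% interval 25.3 to 771, counting error only).

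Slc22a18 was at 2.22, 6.56 and 0.558 CPM in ventral libraries 1 to 3, against 0, 0.0963 and 0 CPM in dorsal. Its order over the ventral libraries, with library 2 the highest and library 3 the lowest, was that of the small intestine and pancreas marker sums. Phlda2 was also highest in ventral library 2. The part of intestinal or pancreatic RNA in these differences was not tested. The call of Slc22a18 (edgeR adjusted p = 0.02) was lost without dorsal library 1 (adjusted p = 0.0826), without dorsal library 3 (0.0579), without ventral library 1 (0.05) and by limma (0.0689). Without ventral library 2, its highest library, Slc22a18 fell below the minimum of 1 CPM and was not tested, and without dorsal library 2, which leaves no dorsal count, the fitted log2 fold change of 8.90 is not a bound. Of the other 13 called members, Peg3, Ndn, Snrpn and Nap1l5 were highest in ventral library 1, Nnat in ventral library 2, and Dlk1, Usp29, Zim1, Magel2, Peg10, Sgce, Asb4 and Mest in ventral library 3. Ventral library 3 had the lowest sums of intestinal and pancreatic markers and the highest sum of hypothalamic markers.

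Outside the clusters, Nnat (chromosome 2, 157560078 to 157562522, plus strand), a small membrane protein of the endoplasmic reticulum in developing neurons and endocrine cells, was at 4165, 4636 and 5605 CPM in dorsal libraries and 9147, 11227 and 9562 CPM in ventral ones. Every ventral library was above every dorsal library. Nnat was 2.08-fold higher in ventral (log2 fold change 1.06, standard error 0.14, edgeR adjusted p = 0.00218). Nap1l5 (chromosome 6, 58905233 to 58907076, minus strand), of the nucleosome assembly protein family, was at 56.5, 61.5 and 67.3 CPM in dorsal libraries and 298, 260.0 and 297 CPM in ventral ones. The fold of 4.62 exceeded that of Nnat, and the replicates were tight (log2 fold change 2.21, standard error 0.16, adjusted p = 0.00013).

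The remaining members gave no call. Igf2, the fetal growth factor, was at 1.93, 0.963 and 3.29 CPM in dorsal libraries and 0.593, 1.30 and 0.167 CPM in ventral ones, and its regions overlapped (log2 fold change -1.57, standard error 0.88, edgeR adjusted p = 0.271). In GENCODE M21, 62.8% of Igf2 exonic bases are shared with the predicted gene Gm49394, and reads over shared exons could have been split or left out by the counting. Igf2r (chromosome 17), the receptor that clears Igf2, was at 31.6, 34.9 and 13.8 CPM against 25.9, 18.3 and 18.6 CPM (log2 fold change -0.36, adjusted p = 0.556). Plagl1 (chromosome 10), a zinc finger regulator of other imprinted genes, was at 119, 110.3 and 90.5 CPM against 96.2, 89.3 and 80.2 CPM (log2 fold change -0.27, adjusted p = 0.342). Impact (chromosome 18), a regulator of the translation kinase Gcn2, was at 33.8, 29.7 and 29.5 CPM against 30.3, 24.3 and 53.1 CPM (log2 fold change 0.21, adjusted p = 0.686). Gnas, the stimulatory G protein alpha subunit, averaged 1159 ± 118 CPM in dorsal libraries and 1233 ± 163 CPM in ventral ones, and its alternative promoters, which differ in parental origin, are summed in the count. Of all 28 members, Igf2, Ube3a, Igf2r and Plagl1 had a log2 fold change below 0.

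Levels of different genes were compared per kilobase of exon. In dorsal libraries the order was Nnat at 2625 CPM per kb, Snrpn at 281, Cdkn1c at 192, Ndn at 127 and Gnas at 104 CPM per kb. In ventral libraries it was Nnat at 5456 CPM per kb, Ndn at 439, Snrpn at 438, Cdkn1c at 266 and Nap1l5 at 155 CPM per kb, followed by Magel2 at 150.4 and Mest at 147. Ndn and Snrpn thus stood at nearly the same level per length in ventral. Dlk1 was at 8.84 CPM per kb in dorsal and 119 CPM per kb in ventral, where it lay slightly above Gnas at 110.3. At the low end of the ventral order were Igf2 at 0.120, Rtl1 at 1.09 and Slc22a18 at 1.83 CPM per kb.

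Cell markers moved between the regions beside these genes. Neuronal markers summed to 5590.2 to 6407 CPM in dorsal libraries and 6786 to 7254 CPM in ventral ones, with 4 of 12 higher in ventral, 1 higher in dorsal and 7 not called. S phase genes summed to 976 to 1183 CPM in dorsal libraries and 346 to 445 CPM in ventral ones, with 8 of 9 higher in dorsal, and dorsal libraries were also higher in 5 of 10 genes of neural progenitors. Mesenchymal markers summed to 29.7 to 33.1 CPM and 30.2 to 46.3 CPM, with 1 of 8 tested higher in ventral. Of all genes tested, 9.54% were called higher in ventral and 7.14% higher in dorsal. The share of these cell-type differences in the imprinted gene differences was not tested.

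Genes that establish, keep or erase imprints went the other way or were not called. Of 24 listed, 21 were tested, and 5 were higher in dorsal (Uhrf1, Dnmt1, Tet3, Ehmt2 and Trim28), beside 7.14% of all genes. Higher in ventral were 0, beside 9.54% of all genes. The other 16 were not called, and the median log2 fold change was -0.51. Uhrf1, which brings the maintenance methyltransferase to replicating DNA and was also among the S phase genes, averaged 76.4 ± 14.9 CPM in dorsal libraries and 13.8 ± 0.265 CPM in ventral ones (log2 fold change -2.46, edgeR adjusted p = 0.000288). Dnmt1, the maintenance methyltransferase itself, was at 134 ± 22.6 and 63.3 ± 2.87 CPM (log2 fold change -1.08, adjusted p = 0.00544). DNA methylation was not measured.

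Partners of the imprinted proteins were also listed. Of 13 tested, 6 were higher in dorsal (E2f1, Ccne1, Notch1, Igfbp2, Cdk2 and Igf1r), beside 7.14% of all genes. Higher in ventral were 0, beside 9.54% of all genes. The other 7 were not called, and the median log2 fold change was -1.04. E2f1, the cell cycle factor bound by Ndn, averaged 43.2 ± 1.45 CPM in dorsal libraries and 10.4 ± 0.834 CPM in ventral ones (log2 fold change -2.06, edgeR adjusted p = 0.000481). Ccne1, the cyclin whose kinase is inhibited by Cdkn1c, was at 20.0 ± 2.50 and 5.49 ± 2.44 CPM (log2 fold change -1.87, adjusted p = 0.0116). Of these 6 partners, E2f1, Ccne1 and Cdk2 act in cell cycle entry, and the S phase sums moved the same way. The part of cell cycle differences in the partner differences was not tested.

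The medial cortex libraries addressed the Axin2 genotype. Each library is labelled a cell and no animal is named, so each genotype counts as 1 sample, no test was made, and the values describe these libraries only. TPM (transcripts per 1000000) keeps no depth, which is unknown. The 6 markers of medial cortex and hem summed to 273 to 539 TPM in null and 299 to 654 TPM in wild-type libraries. Lhx2 made up much of this sum, averaging 266 TPM in null and 259 TPM in wild type. The hem marker Wnt3a was at 1 TPM or more in 5 of 13 null and 7 of 12 wild-type libraries. Choroid plexus markers had median sums of 563 TPM in null and 492 TPM in wild type. Those of the medial cortex and hem markers were 447 and 437 TPM. Most of the choroid plexus sum was Ttr, averaging 485 TPM in null and 434 TPM in wild type. Folr1 averaged 25.3 and 37.0 TPM and Clic6 5.58 and 7.20 TPM, and Aqp1 and Kl averaged below 1 TPM in both genotypes. The source of the Ttr RNA was not tested. The median sum of hypothalamic markers was 0 in both genotypes. Null libraries had 7863 to 11852 genes at 1 TPM or more (median 10791) and wild-type libraries 8693 to 12209 (median 11271). Erythroid genes summed to between 1818 and 37229 TPM in null and between 640.4 and 23194 TPM in wild-type libraries, so their share of each library varied widely.

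Of the 35 members, 30 averaged 1 TPM or more across the 25 libraries, as did 13680 genes in all. Rtl1, Mirg, Phlda2, Slc22a18 and Zim1 lay below. At a difference of 1 in mean log2(TPM + 1), null minus wild type, 0 of the 30 were higher in null, beside 1.39% of all genes, and 4 were lower in null (Sgce, Snurf, Airn and Asb4), beside 8.14% of all genes. Airn, at mean levels of 0.877 TPM in null and 5.64 TPM in wild type, passed the 1 TPM minimum only through its wild-type libraries. A count as higher in null was thus not possible for Airn. The median difference was -0.36 over the 30 members and -0.22 over all genes, and 23 of the 30 members were below 0, as were 9012 of the 13680 genes. By class the median was -0.35 for 19 paternally expressed members, -0.37 for 9 maternally expressed members and -0.11 for Gnas and Inpp5f. The counts past the fold depended on the setting. With a pseudocount of 0.1 they were 2 higher (5.60% of all genes) and 7 lower (22.2%), with a pseudocount of 5 they were 0 and 0 (0.205 and 1.07%), and by medians of libraries they were 0 and 8 (3.12 and 12.4%). With a pseudocount of 0.1 the higher members were Rian and Peg10, and Peg10 passed the minimum only through its null libraries.

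**Figure D3:**
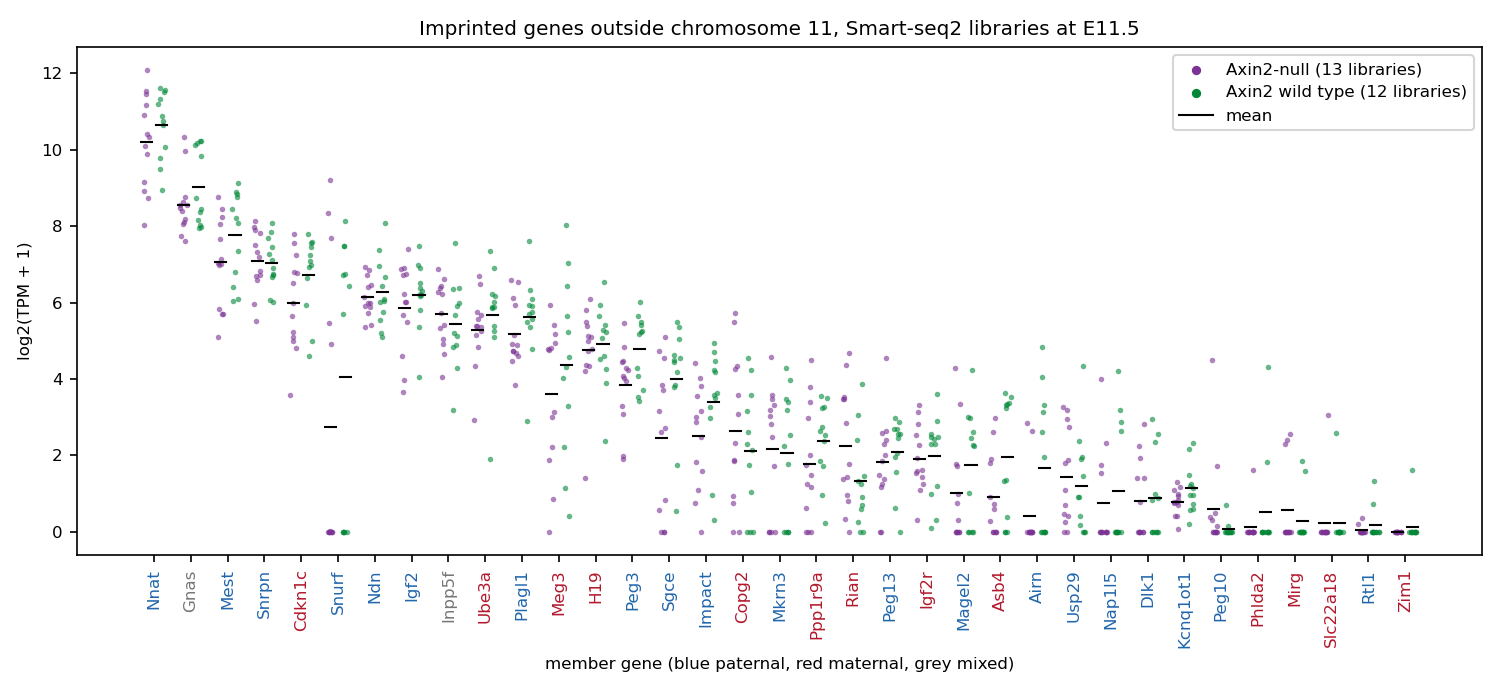
Level of each of the 35 members in each Smart-seq2 library as log2(TPM + 1), with 13 Axin2-null libraries in purple, 12 wild-type libraries in green and the group mean as a black bar, ordered by mean level. Nnat is at the top in both genotypes, and every member has libraries of the 2 genotypes at overlapping levels.

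Sgce had the largest negative difference, -1.56. It was between 0 and 33.4 TPM in null libraries with a median of 5.62, and between 0.460 and 43.6 TPM in wild-type libraries with a median of 21.2. It was at 1 TPM or more in 8 of 13 null libraries (61.5%, exact Clopper-Pearson 95% interval 31.6 to 86.1%) and in 11 of 12 wild-type libraries (91.7%, 61.5 to 99.8%). The intervals, which cover counting error only, overlapped. Asb4 differed by -1.05, with medians of 0.510 TPM in null and 4.99 TPM in wild type and 4 of 13 against 8 of 12 libraries at 1 TPM or more. In Airn, the noncoding RNA that silences Igf2r on the paternal chromosome, the difference of -1.23 rested on 2 of 13 and 6 of 12 libraries at 1 TPM or more. As said above, Airn passed the minimum only through its wild-type libraries. Snurf differed by -1.32, was at 0 in 7 of 13 null libraries and reached 592 TPM in another, and its mean of 91.9 TPM in null exceeded that of 82.0 TPM in wild type. Mean and log scale thus gave opposite directions for Snurf. The exons of Snurf lie wholly within those of Snrpn, which differed by 0.04, so the level of Snurf is uncertain here too.

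Among the abundant members, 12 were at 1 TPM or more in all 25 libraries, namely Nnat, Gnas, Mest, Snrpn, Cdkn1c, Ndn, Igf2, Inpp5f, Ube3a, Plagl1, H19 and Peg3. Nnat ranged from 262 to 4351 TPM in null libraries with a median of 1293, and from 492 to 3144 TPM in wild-type libraries with a median of 1809. Mest ranged from 33.1 to 437 TPM with a median of 131 in null, and from 65.4 to 561 TPM with a median of 283 in wild type. In both genes the ranges overlapped over most of their length. Cdkn1c, which promotes cell cycle exit of progenitors, ranged from 10.9 to 221 TPM in null (median 62.4) and from 23.2 to 222 TPM in wild type (median 130.1). Peg3 ranged from 2.72 to 42.8 TPM in null (median 15.9) and from 9.78 to 64.2 TPM in wild type (median 35.8), a difference of -0.93 that stopped short of the fold used. Snrpn and Ndn had nearly equal medians in both genotypes, with 145 and 128 TPM for Snrpn and 62.3 and 66.5 TPM for Ndn in null and wild type.

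The growth factor Igf2 and its noncoding neighbour H19 were present in every library. Igf2 reached 169 TPM in null (median 63.8) and 177 TPM in wild type (median 75.3), and H19 ranged from 1.66 to 67.2 TPM in null (median 30.7) and from 4.22 to 92.5 TPM in wild type (median 34.7). Mesenchymal markers, which mark cells that also express Igf2 and H19, summed to 32.8 to 271 TPM in null libraries with a median of 71.9, and to 27.1 to 286 TPM in wild-type libraries with a median of 142. All 7 of these markers with a mean of 1 TPM or more had a difference below 0, as did 9012 of all 13680 genes. The part of mesenchymal cells in the Igf2 and H19 levels was not tested. Of the noncoding RNAs of the Dlk1-Meg3 cluster, Meg3 was at 1 TPM or more in 11 of 13 null and 11 of 12 wild-type libraries and reached 59.8 TPM in null and 262 TPM in wild type, with medians of 26.2 and 21 TPM. Rian had the largest positive difference of the members, 0.92, with medians of 2.40 TPM in null and 1.12 TPM in wild type. Dlk1 itself had medians of 0 TPM in null and 0.390 TPM in wild type, with 5 of 13 and 3 of 12 libraries at 1 TPM or more. Peg10 was at 1 TPM or more in 2 null libraries and in 0 wild-type libraries, where the exact interval reached 26.5%.

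Members of a cluster were compared across libraries after the genotype means were subtracted. Over 29 pairs within a cluster the median Pearson r of log2(TPM + 1) was 0.13, from -0.33 to 0.63, and over all 435 pairs of the 30 members it was 0.11, from -0.59 to 0.70 (n = 25 libraries). The highest value within a cluster was 0.63 for Ndn and Snrpn. The libraries also differed in the number of genes detected, with which the 30 members correlated between -0.29 for Peg10 and 0.66 for Meg3 and Nnat, and its part in these coefficients was not tested.

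**Figure D4:**
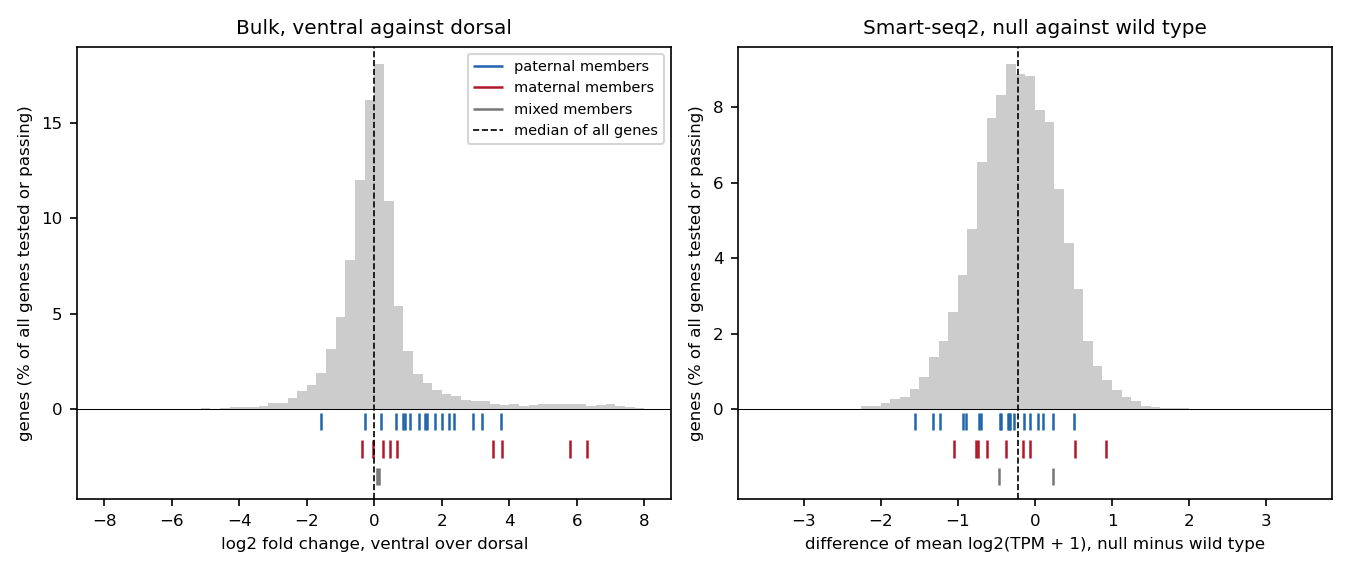
Distribution of all genes in grey, with each member as a tick coloured by parental class and the median of all genes as a dashed line. On the left is the bulk log2 fold change, ventral over dorsal, of 14701 genes, of which 191 lie beyond the axis, and 24 of 28 members lie above 0; on the right is the Smart-seq2 difference of mean log2(TPM + 1), null minus wild type, of 13680 genes, where 23 of 30 members and 9012 of all genes lie below 0.

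Regulators of imprinting in the medial cortex were set beside the members. Of 21 regulators with a mean of at least 1 TPM, 0 were higher and 2 were lower in null by the fold used, beside the 1.39 and 8.14% of all genes given above. The differences of 19 of 21 were below 0, as were those of 9012 of 13680 genes, and their median was -0.46 against -0.22 over all genes. Zfp57, which binds methylated TGCCGC, was at 26.6 ± 19.5 TPM in null and 57.1 ± 50.6 TPM in wild-type libraries (SD, 13 and 12 libraries, difference -1.30), and Arid4a, a chromatin protein of the Prader-Willi imprint, at 11.3 ± 11.9 and 18.5 ± 9.77 TPM (difference -1.06). Among the 13 partners, 0 were higher and 1, Ccne1, was lower (difference -1.14), with a median of -0.33.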

How the data were processed

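Bulk RNA-seq of 6 wild-type libraries and Smart-seq2 of 25 libraries were analysed from the deposited tables. The submitters' processing notes list Trimmomatic, featureCounts, STAR 2.7.0a, mm10 and GRCm38, with no role or order. The deposited bulk values were taken as estimated counts: although the name of the table says TPM, its columns sum to many times 1000000 and to a different total in each library, and of the nonzero values 46.6% were whole to within 0.0001. Values in the deposited Smart-seq2 table are TPM, as its columns sum to between 999999.57 and 1000000.7. Its columns were tied to a genotype by their colour letter, not to a numbered sample.

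Identifiers were matched to GENCODE M21 on GRCm38 (34581 of 34865 bulk and 55141 of 55487 Smart-seq2 identifiers had a symbol), which also gave coordinates and exon lengths. Estimated counts were rounded and tested with edgeR 4.0.16 in R 4.3.3 (TMM scaling, estimated dispersions, quasi-likelihood F test) over genes averaging 1 CPM or more, with Benjamini-Hochberg adjustment over all genes tested and a threshold of 0.05. CPM are after TMM scaling, means are given with the SD over 3 libraries, and a fold is the ratio of mean CPM. DESeq2 1.42.0 and limma 3.58.1 on log2(CPM + 1) were alternatives, beside RLE size factors, no filter, a minimum of 5 CPM, the replicate number as a block, and each library left out. A chi-square statistic per gene found no pair of bulk libraries within sampling noise. The edgeR step was tested on simulated counts.

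For Smart-seq2, the difference of mean log2(TPM + 1) was computed over genes averaging 1 TPM or more, with pseudocounts of 0.1 and 5, no filter, and medians as alternatives. All 35 members are named. Values per library are given for called members that reach 10 CPM in the higher region and for cluster neighbours. For the regulators, partners and further imprinted genes, values are given for up to 2 genes past the threshold per direction. The members, classes and lists were chosen with earlier results of these data known.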

Additional observations from a re-analysis of the deposited data

How the results depend on the processing

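The number of members higher in ventral was 17 by DESeq2 and with no filter on low values, 13 with a minimum of 5 CPM, 15 by limma and with RLE size factors, and between 12 and 16 with each library left out, and 0 members were higher in dorsal in any of these settings. Over the same settings, 843 (without dorsal library 1) to 2009 (DESeq2) of all genes were higher in ventral and 498 (without dorsal library 1) to 1695 (without ventral library 3) higher in dorsal, against 1403 and 1050 in the test reported. The count higher in ventral was 900 without ventral library 2, 909 without dorsal library 2 and 920 without ventral library 1, and that higher in dorsal was 530 without ventral library 1, 561 without dorsal library 2 and 600 without ventral library 2. Of the 15 members called, 12 were called in each alternative run. With a minimum of 5 CPM, Rtl1, Igf2, Phlda2 and Slc22a18 were not tested, nor was Igf2 without dorsal library 3 or Slc22a18 without ventral library 2, and Phlda2, Slc22a18 and Snrpn lost the call in the settings given above. Rtl1 gained it by DESeq2 (adjusted p = 0.00675), limma (0.0158) and no filter (0.0327), and Mkrn3 by DESeq2 (0.023) and no filter (0.0495). The maternal median log2 fold change was 0.48 with a minimum of 5 CPM, 0.57 by limma, and 0.49 to 0.84 with each library left out. The paternal median was 1.47 to 1.61 with each library left out. Of members not called, Ube3a (-0.04) ranged from -0.11 to 0.06 with each library left out, above 0 without dorsal library 1 and at 0.00 without ventral library 2, and Impact (0.21) ranged from -0.15, without ventral library 3, to 0.43. The causes were not tested.

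The replicate numbers are shared by the regions, but the labels do not say what they mark. Deviations from the region means correlated at 0.099, 0.148 and 0.165 between same-numbered libraries, so pairing was not established, and not every library correlated best with its own number (dorsal library 2 with ventral library 1, 0.187). With the replicate number as a block, 15 members were higher in ventral and 0 in dorsal, the maternal median was 0.57, and 1083 and 924 of all genes were called.

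For Smart-seq2, the counts past the fold were 2 higher and 7 lower with a pseudocount of 0.1, 0 and 0 with a pseudocount of 5, and 8 lower by medians, where Snurf was at -6.07. The median difference of the members stayed between -0.45 and -0.26. Depth is unknown for these libraries, and 2 dorsal counts limit Slc22a18.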

Other observations

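A further list of 22 imprinted genes outside chromosome 11 that are not among the 35 was tested in the bulk libraries. Of 17 tested, 5 (Calcr, Klf14, Dio3, Zdbf2 and Blcap) were higher in ventral, beside 9.54% of all genes. Higher in dorsal was 1 (Osbpl5), beside 7.14% of all genes. The other 11 were not called, and the median log2 fold change of the 17 was 0.30. Calcr, the calcitonin receptor near the Peg10-Sgce cluster, averaged 1.87 ± 1.66 CPM in dorsal libraries and 53.6 ± 9.67 CPM in ventral ones (SD, n = 3 each, log2 fold change 4.86, edgeR adjusted p = 0.00155). Klf14, a zinc finger gene near Mest, was at 0.250 ± 0.228 and 3.88 ± 0.457 CPM (log2 fold change 3.95, adjusted p = 0.0123). Klf14 passed the minimum of 1 CPM only through its ventral libraries. Osbpl5, a lipid transfer protein of distal chromosome 7, averaged 56.7 ± 9.93 CPM in dorsal libraries and 23.2 ± 6.87 CPM in ventral ones (log2 fold change -1.29, adjusted p = 0.0133). In the Smart-seq2 libraries 11 of the 22 had a mean of at least 1 TPM, and Calcr was listed at 0 in all 25 libraries. None of the 11 differed by the fold used, beside 1.39% of all genes higher and 8.14% lower in null.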
